A study of Mus musculus with 14 samples.

Results

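H2A.Z maps of mouse small intestinal epithelium at E14.5 were compared with those of adult Lgr5+ intestinal stem cells (ISC). The comparison used the peak lists of 2 chromatin immunoprecipitation sequencing (ChIP-seq) libraries per stage on chromosomes 1 to 19. Peaks of the 4 lists that overlapped or touched were merged into 35748 regions, and a library had a region when it held a peak there. Merging the peaks of all 8 H2A.Z libraries of the series over all chromosomes gave 45028 regions. The E14.5 cells were sorted from embryonic small intestine as EpCAM+CD31−CD45−DAPI−, that is, living cells with an epithelial surface marker and without endothelial and blood markers. The ISC were Lgr5-EGFPhigh cells from the crypts of male Lgr5EGFP-Cre-ERT mice aged 2 months (P60), in which EGFP reports expression of the stem cell gene Lgr5. The labels give the strain of all these mice as mixed C57BL/6 CD1 and name no transgene and no sex for the embryos. Age, sorting marker, genotype and, as far as it is stated, sex therefore differ together between the stages and cannot be told apart. The labels do not say whether cells of several animals were pooled. The E14.5 sort took EpCAM+ cells as a whole, whereas the ISC sort took 1 cell type of the adult crypt. The other H2A.Z libraries of the series are of E12.5 epithelium and of enterocytes from adult mice at P60, the age of the ISC.

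H2A.Z is a variant of the core histone H2A that replaces it in a minority of nucleosomes, above all beside the start sites of genes and at enhancers. The SRCAP and p400 remodelling complexes place it there, and it marks both active promoters and promoters that are poised for later use. The E14.5 intestinal epithelium is a proliferating tube that is beginning to form villi, while adult Lgr5+ cells at the crypt base divide continuously and supply all epithelial lineages of the gut. Peak positions refer to the mouse build mm9. Regions are described by position, because no annotation of that build was used here. The sorted cells could therefore not be checked here against their marker genes.

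The libraries stood apart in quality before any comparison of stages. MACS, the authors' peak caller, estimated the length of the immunoprecipitated fragments as 191 bp in E14.5 replicate 1, 247 bp in ISC replicate 1 and 228 bp in ISC replicate 2. For E14.5 replicate 2 it was 71 bp, close to the sequenced tag length of 68 bp, although chromatin of every sample was sheared to 350 to 700 bp per the labels' protocols. The 4 libraries held 27835048 to 37256682 tags. The lists held 16853 peaks in E14.5 replicate 1, 5999 in E14.5 replicate 2, 26299 in ISC replicate 1 and 31376 in ISC replicate 2. Peaks covered 13.6, 1.73, 27.8 and 31.2 Mb in the same order. Median peak length was 733 bp and 238 bp in the E14.5 libraries and 920 bp and 818.5 bp in the ISC libraries. Both ISC lists were thus longer and had wider peaks than either E14.5 list, but with 2 libraries against 2 the exact two-sided permutation test gave p = 0.333 for each of these measures, the smallest value this design allows. Within a list, fold enrichment over the local background rose with pileup, the tag coverage given for a peak, in both ISC libraries (Spearman's rho 0.804 and 0.767 across peaks). The same rho was 0.325 in E14.5 replicate 1 and -0.407 in E14.5 replicate 2. Results that involve E14.5 replicate 2 are therefore given with and without it.

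In the full lists, adult stem cells had H2A.Z peaks at many regions without a peak in E14.5 epithelium, and the reverse was rare. With the 5999 strongest peaks of every list the counts were 1092 and 729. In the full lists, of the 35748 regions, 9633 (26.9%) had a peak in both ISC libraries and in neither E14.5 library, and are called ISC-only here. Another 104 (0.291%) had a peak in both E14.5 libraries and in neither ISC library, and are called E14.5-only. All 4 libraries had a peak in 4996 regions (14.0%), called shared. A further 8913 regions had peaks in E14.5 replicate 1 and both ISC libraries and lacked E14.5 replicate 2 alone. ISC replicate 2 alone had 6838 regions, ISC replicate 1 alone 2437 and E14.5 replicate 1 alone 1704. When E14.5 replicate 2 was left out and the other 3 lists were merged anew, there were 35651 regions. ISC-only regions then numbered 9696 (27.2%), regions with a peak in E14.5 replicate 1 and no ISC library 1808 (5.07%) and regions with a peak in all 3 libraries 13909 (39.0%). The count of ISC-only regions thus barely moved without E14.5 replicate 2, whereas those of embryonic and common regions were higher, with 1 library fewer that had to agree. Leaving out E14.5 replicate 1 gave 18551 ISC-only regions, and leaving out ISC replicate 1 gave 16627. No count has a test, since with 2 libraries a stage an exact test could not reach 0.05.

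**Figure D1:**
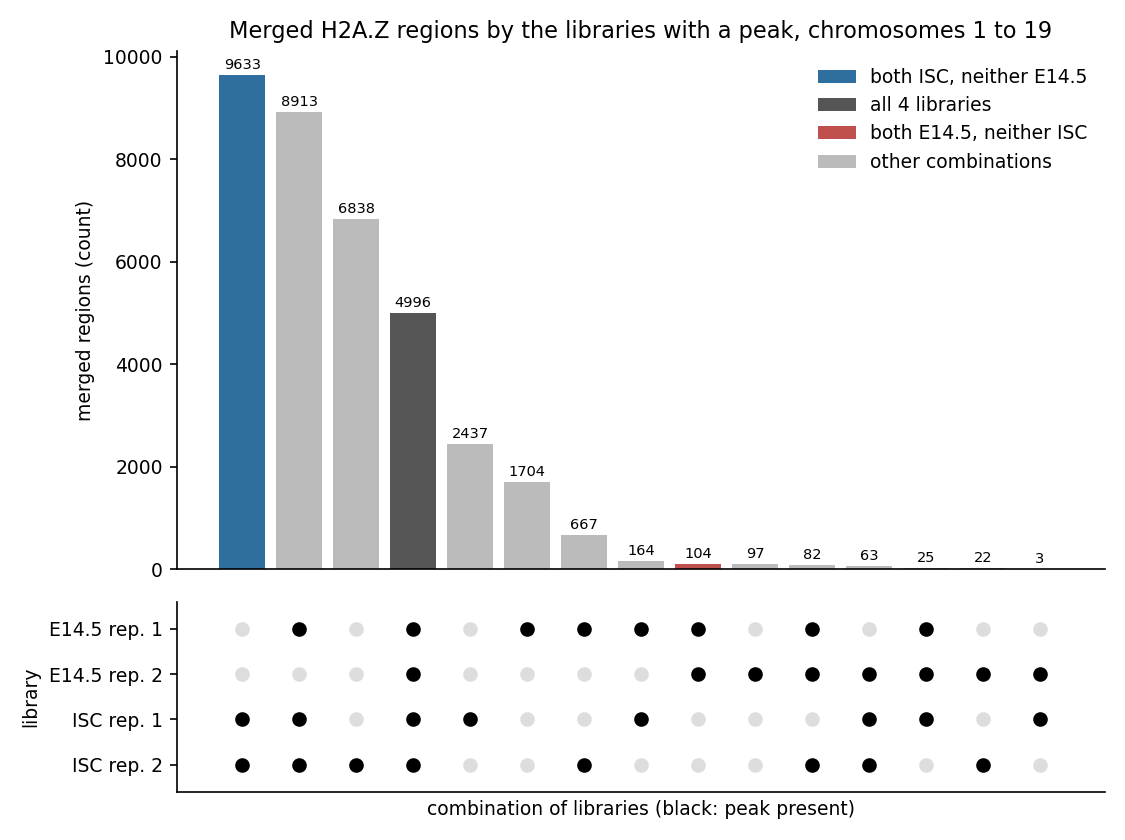
Number of merged regions (vertical axis) for each combination of libraries with a peak, which the black dots below each bar name. The 9633 regions of both ISC libraries and the 8913 that lack E14.5 replicate 2 alone are the tallest bars, and the 104 regions of both E14.5 libraries alone form a short one.

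ISC-only regions were weak on average within the ISC lists. Their median fold enrichment was 2.85 in ISC replicate 1 and 3.06 in ISC replicate 2, against 4.54 and 4.61 at shared regions. Their median length was 794 bp, against 1600.5 bp for shared regions. Ranked by p within its list, the median ISC-only region lay at percentile 32.5 of ISC replicate 1 and 41.3 of ISC replicate 2, where 100 is the strongest peak. Of ISC-only regions, 2.50% and 4.59% lay in the strongest quartile of these lists. The class held strong members too. The region with the highest lower fold enrichment of both ISC libraries, chr11:62373760-62374808, had a fold enrichment of 6.23 in ISC replicate 1 and 6.27 in ISC replicate 2, percentiles 98.2 and 98.6 of the lists. It also had peaks in E12.5 replicate 1 at 3.94-fold and in the enterocyte libraries at 4.52-fold and 5.12-fold. The second, chr11:57905925-57907009, had values of 6.21 and 6.38. The third, chr15:96471038-96474056, was a domain of 3019 bp with values of 6.08 and 6.20, of which the ISC libraries covered 2963 and 2941 bp. The 10 strongest ISC-only regions had fold enrichments of 5.55 to 6.23 in ISC replicate 1 and of 5.51 to 6.59 in ISC replicate 2. Of these 10 regions, 9 and 7 also had a peak in the E12.5 libraries, and 9 and 10 in the enterocyte libraries. For comparison, 99.8% and 99.2% of all peaks in the strongest decile of ISC replicate 1 overlapped a peak of the E12.5 libraries, and 98.0% and 99.9% a peak of the enterocyte libraries. An exception among the 10 was chr6:115742104-115743437, with 6.09 and 5.54 in ISC, 4.82 and 6.18 in enterocytes and no peak in any of the 4 embryonic libraries.

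An ISC peak that overlapped or touched an E14.5 peak was merged with it, so ISC-only regions excluded such edges by definition. Their median distance to the nearest peak of E14.5 replicate 1 was 24037 bp, and 34 of the 9633 lay within 1000 bp of one. Within 5000 bp there were 1165 (12.1%). For the 104 E14.5-only regions, 2 (1.92%) lay within 1000 bp of a peak of ISC replicate 1 and 14 (13.5%) within 5000 bp. Of all ISC-only regions, 3075 (31.9%) had no peak in any E12.5 or enterocyte library, close to the 29.8% of all regions. The strongest of these, singled out after its values were seen, was chr1:13042154-13042646 with 4.98-fold in ISC replicate 1 and 5.26-fold in ISC replicate 2, percentiles 89.3 and 93.3 of the lists.

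The 104 E14.5-only regions were short and low in pileup. Their median length was 540 bp and their median fold enrichment was 3.10 in E14.5 replicate 1 and 3.95 in E14.5 replicate 2. By p, the median region lay at percentile 31.9 of the first list and 38.8 of the second. By pileup it lay lower, at percentiles 20.9 and 13.2. By fold enrichment it lay higher, at percentile 48.8 of the first list and 70.5 of the second. The strongest, chr5:143664823-143665337, had a fold enrichment of 7.75 in E14.5 replicate 1 and 6.87 in E14.5 replicate 2, the highest of the second list. It was also listed in both enterocyte libraries at 6.20 and 9.11, the latter the highest fold enrichment of that list, and in E12.5 replicate 2 at 2.17. The next, chr10:105460606-105461183, had 4.23 and 4.19 at E14.5, 3.98 and 4.15 at E12.5 and no peak in either adult cell type. The third, chr1:69490031-69491476, was 1446 bp long with 4.10 and 4.46 at E14.5 and 3.59 and 2.79 at E12.5. Among the 10 strongest E14.5-only regions, fold enrichment ran from 3.77 to 7.75 in E14.5 replicate 1. Of these 10, 9 had a peak in E12.5 replicate 1 and 10 in E12.5 replicate 2, against 1 and 2 in the enterocyte libraries. With E14.5 replicate 2 left out, the 5 strongest embryonic regions opened with the same region on chromosome 5. The next, chr2:125493020-125493306, had 5.01-fold in E14.5 replicate 1 and no peak in any E12.5 or enterocyte library. The remaining 3 had 4.44 to 4.48-fold.

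The strongest peaks of E14.5 replicate 1 and of the ISC libraries nearly always had a counterpart in each other, whereas E14.5 replicate 2 lacked many of them. Each list was divided into deciles by p. In the strongest decile of ISC replicate 1, 98.6% of peaks overlapped a peak of E14.5 replicate 1. That share was 57.4% in decile 5 and 12.2% in the weakest. ISC replicate 2 overlapped 100%, 98.9% and 58.1% of the same peaks. E14.5 replicate 2 overlapped 62.8% of the strongest decile, 31.9% of decile 3 and 1.44% of the weakest. Seen from the embryo, 99.6% of the strongest decile of E14.5 replicate 1 overlapped a peak of ISC replicate 1 and 57.5% of the weakest did. Over the whole list, 84.6% of the peaks of E14.5 replicate 1 lay on ISC replicate 1 and 88.0% on ISC replicate 2. On E14.5 replicate 2, the shortest list, lay 30.8%. Peaks of E14.5 replicate 1 were thus found less often in the shorter list of the same stage than in either ISC library. Of the peaks of E14.5 replicate 2, 96.1% lay on E14.5 replicate 1, 94.1% on ISC replicate 1 and 95.7% on ISC replicate 2. Of the peaks of ISC replicate 1, 53.6% lay on E14.5 replicate 1.

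**Figure D2:**
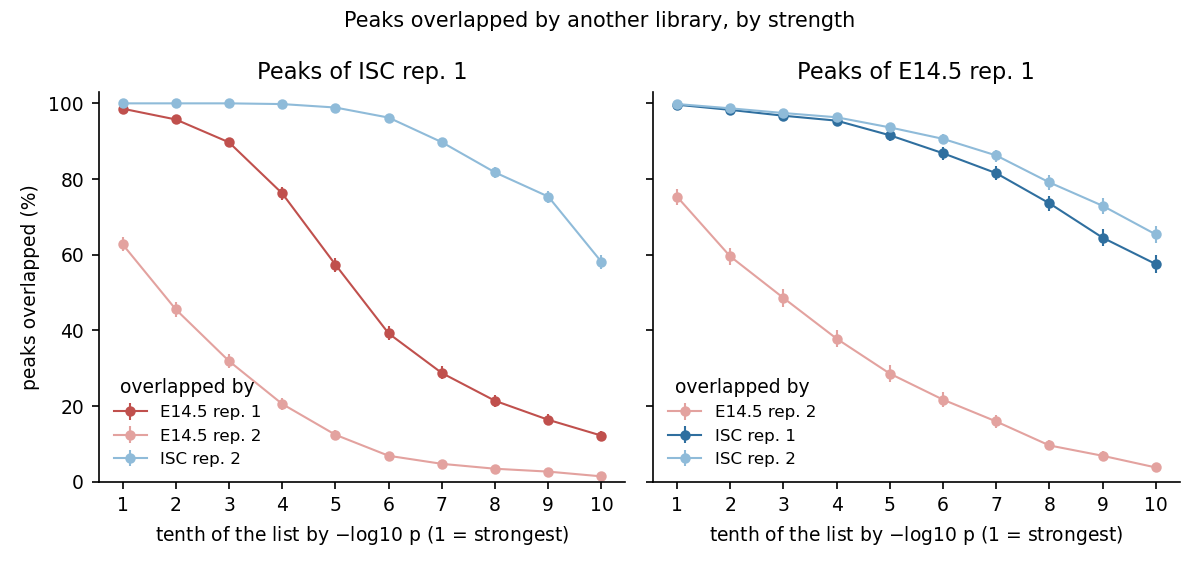
Share of the peaks of ISC replicate 1 (left) and E14.5 replicate 1 (right) that overlap a peak of each other library, by decile of the list from the strongest p (1) to the weakest (10); bars are 95% Wilson intervals, which cover counting error only. The curve of E14.5 replicate 1 on ISC peaks falls from 98.6% to 12.2%, whereas both ISC curves on E14.5 peaks stay at 57.5% or above.

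Cutting all lists to 1 length moves both one-sided counts towards each other by construction. When each list was reduced to its 5999 strongest peaks, the number in E14.5 replicate 2, there were 1092 ISC-only regions (10.8% of 10129) and 729 E14.5-only regions (7.20%). In the full lists, 992 of those 1092 regions (90.8%) had an E14.5 peak, and 715 of the 729 (98.1%) had an ISC peak.

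E12.5 epithelium and adult enterocytes did not enter the definition of the regions and served as an outside reading of each class. E14.5-only regions were mostly listed at the earlier embryonic stage as well. Of the 104, 93 (89.4%) had a peak in E12.5 replicate 1 and 91 (87.5%) in E12.5 replicate 2, against 55.9% and 49.7% of all regions. These shares were near or below those of E14.5 peaks in general. Of all peaks of E14.5 replicate 1, 90.8% and 87.3% overlapped a peak of the E12.5 libraries. For all peaks of E14.5 replicate 2 the shares were 97.3% and 96.5%. In the enterocyte libraries 3 (2.88%) and 7 (6.73%) of the 104 had a peak, against 31.6% and 51.2% of all regions. Enterocyte peaks overlapped 54.3% and 71.8% of all peaks of E14.5 replicate 1, and 18.3% and 38.5% of its weakest decile. For all peaks of E14.5 replicate 2 they overlapped 69.5% and 85.7%. The 104 lacked ISC peaks by definition, unlike most of all regions. The part of this in their enterocyte shares was not tested. Of the 104, 84 (80.8%) had a peak in both E12.5 libraries and neither enterocyte library, against 11.9% of all regions. The 1808 regions found with E14.5 replicate 1 alone showed the same order with lower shares, at 62.7% and 56.2% in E12.5 and 0.387% and 2.88% in enterocytes. Of these, 505 (27.9%) had no peak in any E12.5 or enterocyte library, near the 29.8% of all regions of these 3 lists, and 104 had a peak in E14.5 replicate 2.

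ISC-only regions were divided between embryonic, adult and no other reading. Shares with a peak were 36.2% and 23.6% in the E12.5 libraries and 18.8% and 50.5% in the enterocyte libraries. They lay below the shares of all regions, given above, in 3 of the 4 libraries and near the 51.2% of all regions in enterocyte replicate 2. The enterocyte libraries thus differed from each other by more than the E12.5 libraries did, and enterocyte replicate 1 had a fragment estimate of 67 bp, close to that of E14.5 replicate 2. Peaks in both enterocyte libraries and neither E12.5 library were found at 799 ISC-only regions (8.29%), against 2.93% of all regions. Peaks in both E12.5 libraries and neither enterocyte library were found at 801 (8.32%), against 11.9% of all regions. The strongest region of ISC and enterocytes without any embryonic peak, by the lower ISC value and chosen after the values were seen, was the region on chromosome 6 given above. It was followed by chr3:143861334-143862059, with 6.41 and 5.47 in ISC and 3.84 and 4.23 in enterocytes. Shared regions had peaks in nearly all libraries, at 99.4% and 98.9% in E12.5 and 80.2% and 92.7% in enterocytes. The exact test over 2 libraries a stage cannot reach 0.05, and neighbouring regions are not independent, so the shares are given without a test.

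**Figure D3:**
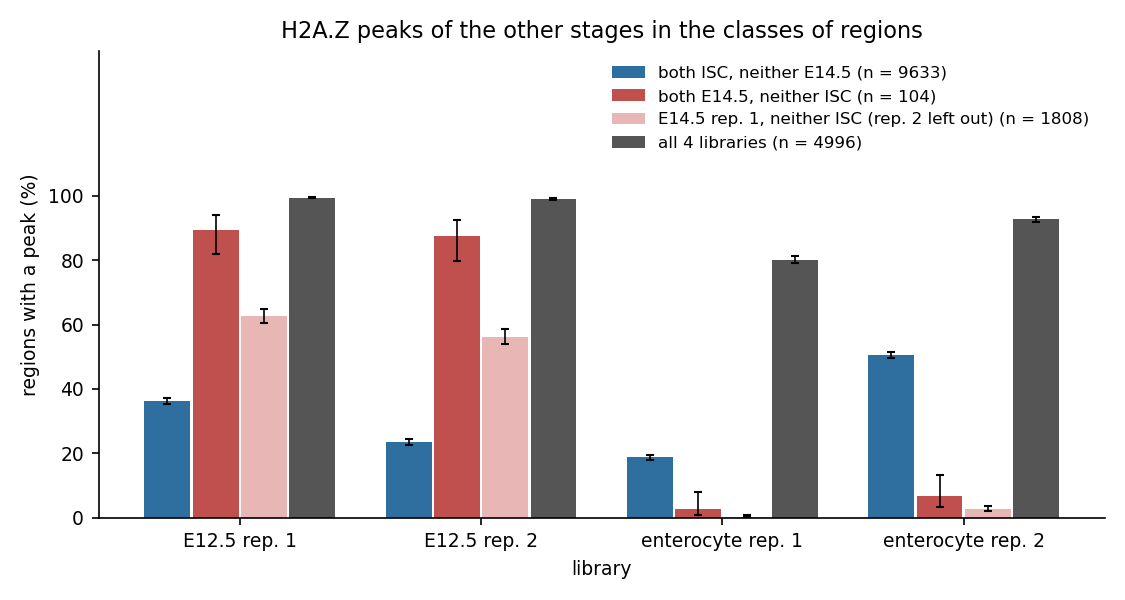
Share of each class of regions with a peak in the 2 E12.5 and 2 enterocyte libraries; error bars are 95% Wilson intervals for counting error. Regions of both E14.5 libraries without ISC stand at 89.4% and 87.5% in E12.5 and at 2.88% and 6.73% in enterocytes, whereas ISC-only regions stand between 18.8% and 50.5%.

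At the 4996 shared regions, H2A.Z peaks were longer in stem cells than in the embryo. The median length covered by peaks was 1078 bp in E14.5 replicate 1 and 274 bp in E14.5 replicate 2. It was 1409 bp in ISC replicate 1 and 1486 bp in ISC replicate 2. The ISC libraries lay above both E14.5 libraries, and the E14.5 libraries lay much farther from each other than the ISC libraries did. The median log2 ratio of the mean log length in ISC over that in E14.5 was 1.40, and without E14.5 replicate 2 it was 0.40. The exact two-sided permutation test on the library medians gave p = 0.333, again the smallest value possible.

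Against E14.5 replicate 1, ISC replicate 1 had the longer peak in 83.2% of shared regions and ISC replicate 2 in 88.7%, with median log2 ratios of 0.36 and 0.42. The ISC libraries against each other differed by 0.05 on this scale, with the second longer in 59.7%. In 63.2% of shared regions the E14.5 replicate 1 peak lay wholly inside the peak of ISC replicate 1, and the opposite held in 7.01%. The ISC peak reached a median of 123 bp farther on the left and 127 bp farther on the right, so that the added length lay on both flanks. The 13909 regions common to the 3 lists without E14.5 replicate 2 gave log2 ratios of 0.51 and 0.55. The fragment estimate, which sets how far tags are extended, was 191 bp in E14.5 replicate 1 and 247 and 228 bp in ISC. It was thus longer in ISC, as peaks were. Between the ISC libraries, the longer estimate went with the shorter median covered length at shared regions. Over the whole lists it went with the longer median peak, 920 bp against 818.5 bp. The part of the fragment estimate in the difference between the stages was not tested. E14.5 replicate 2 covered a median of 17.7% of the shared region and broke into 2 or more peaks in 11.6% of them, against 1.26% in E14.5 replicate 1 and 0.360% in each ISC library. Peaks of at least 3000 bp numbered 414 and 442 in the ISC lists, 30 in E14.5 replicate 1 and 0 in E14.5 replicate 2. The longest shared region, chosen after its values were seen, was chr1:162236499-162243161 with 6663 bp. Of it, 3088 and 566 bp were covered at E14.5 and 4880 and 6320 bp in ISC.

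**Figure D4:**
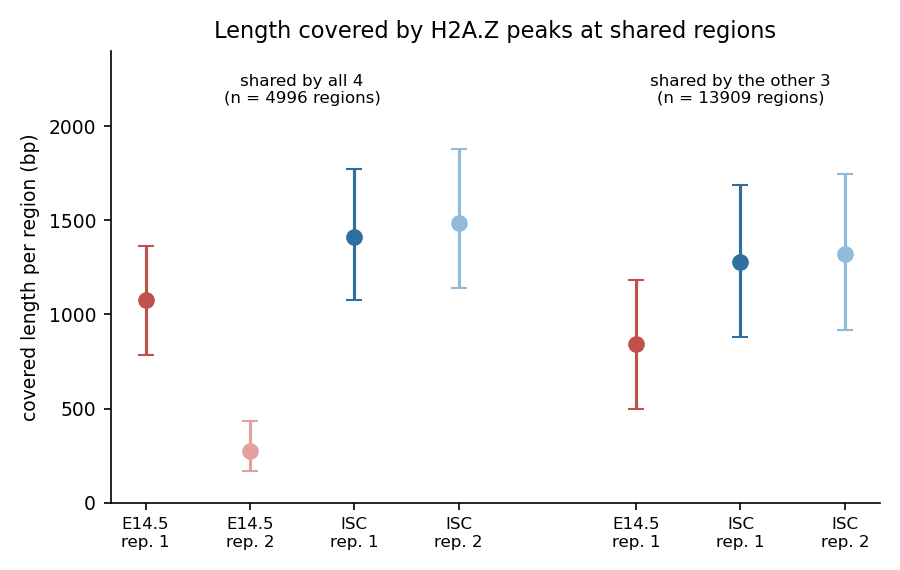
Median length covered by peaks (points) with the quartiles over regions (bars), per library, at the 4996 regions shared by all 4 libraries and at the 13909 shared by the 3 libraries without E14.5 replicate 2. Both ISC libraries lie above E14.5 replicate 1 in each set, with medians of 1409 and 1486 bp against 1078 bp in the first.

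The order of shared regions by fold enrichment was little alike between the stages and also between the E14.5 replicates. Each library was ranked over the same 4996 shared regions, with 100 for the highest value. The scale of the library thus did not enter, but list length did through the choice of regions. By fold enrichment, the median shared region lay at percentiles 72.7 and 49.4 of the E14.5 lists and 82.5 and 85.2 of the ISC lists. Across regions, which are not independent replicates, Spearman's rho of fold enrichment was 0.85 between the ISC libraries and 0.20 between the E14.5 libraries. It was 0.22 and 0.25 between E14.5 replicate 1 and the ISC libraries, and -0.07 and -0.02 between E14.5 replicate 2 and the ISC libraries. At the 13909 regions common to the 3 lists without E14.5 replicate 2, rho was 0.31 and 0.35 between E14.5 replicate 1 and ISC. Between the ISC libraries it was 0.87 there. Ranks of both ISC libraries lay above both E14.5 ranks at 1439 shared regions (28.8%) and below them at 1392 (27.9%). None of the 4996 passed limma's moderated test on normal scores of the ranks at a Benjamini-Hochberg adjusted p of 0.05 (0% called in either direction), although 1226 had an unadjusted p below it. The smallest adjusted p was 0.0665. With 1 E14.5 library in the fit, which is then assumed to vary like the ISC libraries, 1855 regions passed without E14.5 replicate 2 and 2329 without E14.5 replicate 1, close to evenly divided between the directions.

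The shared regions farthest apart in fold enrichment rank are given as values. At chr14:70106425-70107486 the ranks were 4.02 and 1.26 at E14.5 and 96.9 and 96.2 in ISC, for fold enrichments of 2.66 and 3.09 against 6.72 and 6.58. E12.5 had 5.07 and 3.19 there, and enterocytes 4.67 and 5.08. At chr11:98009927-98011887 the ISC values were 8.25 and 6.62, against 2.77 and 3.17 at E14.5. In the other direction, chr7:111392195-111393756 had 4.62 and 5.01 at E14.5 and 3.35 and 3.05 in ISC, ranks 95.3 and 99.1 against 11.3 and 3.48. At chr10:68648426-68649226 the E14.5 values of 4.46 and 4.29 stood against 2.84 and 2.43 in ISC, and neither enterocyte library had a peak. Limma's adjusted p was 0.0665 for each of these.

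Pileup rank was more alike between the E14.5 libraries and was the measure at which single regions passed the test. Spearman's rho was 0.59 between the E14.5 libraries, 0.86 between the ISC libraries and 0.46 to 0.57 across stages. At the 13909 regions common to the 3 lists without E14.5 replicate 2, rho was 0.65 and 0.66 between E14.5 replicate 1 and ISC. Between the ISC libraries it was 0.90 there. Limma's test called 57 of the 4996 shared regions at an adjusted p below 0.05: 49 (0.981%) ranked higher at E14.5 and 8 (0.16%) ranked higher in ISC. Ranks that did not overlap between the stages were far more frequent, with 1438 regions (28.8%) higher in ISC and 1232 (24.7%) higher at E14.5. The call was sensitive: with ranks taken within the whole list 0 regions passed (smallest adjusted p 0.0795 in limma, 1489 with an unadjusted p below 0.05), and with peaks merged within 500 bp 25 did. With E14.5 replicate 2 left out 688 passed, 407 of them higher at E14.5, and all 57 were among them. In that fit the lone E14.5 library is assumed to vary like the ISC libraries, whose ranks were much closer to each other. Without E14.5 replicate 1, 1122 passed, and without ISC replicate 1 or 2, 21 and 17 did.

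The 49 regions with a higher pileup rank at E14.5 had median ranks of 81.3 and 84.9 in the E14.5 libraries and 5.48 and 4.81 in the ISC libraries. Their pileup in E14.5 replicate 1 had a median of 29.7 and a range of 23.4 to 39.9, and that of E14.5 replicate 2 a median of 14.2 and a range of 10.7 to 18.3. In ISC the medians were 21.4 (13.8 to 46.8) and 21.8 (12.3 to 41.6). Most of these regions ranked high among shared peaks at E14.5 and low in ISC, but single ranks went down to 26.1 in E14.5 replicate 2 and up to 69.8 in ISC replicate 1. The region with the smallest p was chr17:55584533-55585651, with pileups of 34.6 and 16.0 at E14.5 and 18.7 and 21.1 in ISC. Its ranks were 96.8 and 97.2 against 2.93 and 4.25, and its adjusted p in limma was 0.0287. The E14.5 peaks there spanned 1119 and 488 bp and the ISC peaks 539 and 724 bp. The second was chr9:72654721-72656205, with pileup ranks of 98.8 and 98.0 at E14.5 against 1.86 and 10.6 in ISC. The third was chr5:111845599-111846992, with pileup ranks of 78.7 and 89.9 against 0.931 and 0.961. These 3 regions were outside the rule for naming regions and were chosen after their values were seen.

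Libraries that took no part in the choice gave a further reading of the 49 regions. All 49 had a peak in both E12.5 libraries, as did 98.7% of all shared regions, at median pileup ranks of 61.8 and 60.7 among the shared regions with a peak there. Enterocyte peaks were found at 4 (8.16%) and 13 (26.5%) of the 49, against 80.2% and 92.7% of all shared regions. Neither enterocyte library had a peak at 36 of them (73.5%), against 7.27% of all shared regions. The wider set of 1232 regions whose pileup ranks lay higher at E14.5 without overlap had enterocyte peaks at 56.8% and 80.8%, and the 1438 higher in ISC at 92.8% and 98.7%. Median ISC pileup ranks were 26.2 and 27.9 in the first of these sets and 66.9 and 66.4 in the second. The sets thus also differed in their ISC pileup rank, which moved with enterocyte presence. Of the 49 regions, 32 also had fold enrichment ranks and 40 had covered length ranks that lay higher at E14.5 without overlap. These measures come from the same peaks as the pileup.

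The 8 regions with a higher pileup rank in ISC varied at E14.5, with pileup ranks of 3.56 to 69.6 in E14.5 replicate 1. In the second E14.5 library they ran from 2.95 to 73.9. Their pileups had medians of 23.6 and 11.04 at E14.5 and of 56.0 and 52.3 in ISC, at median ranks of 32.2 and 31.3 against 93.4 and 95.4. All 8 had peaks in every E12.5 and enterocyte library, as did 79.7% of all shared regions, with median pileup ranks of 68.2 and 51.5 in E12.5 and 80.7 and 88.5 in enterocytes. Limma's adjusted p was 0.0499 for each of the 8, at the edge of the threshold, and none passed when peaks within 500 bp were merged.

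**Figure D5:**
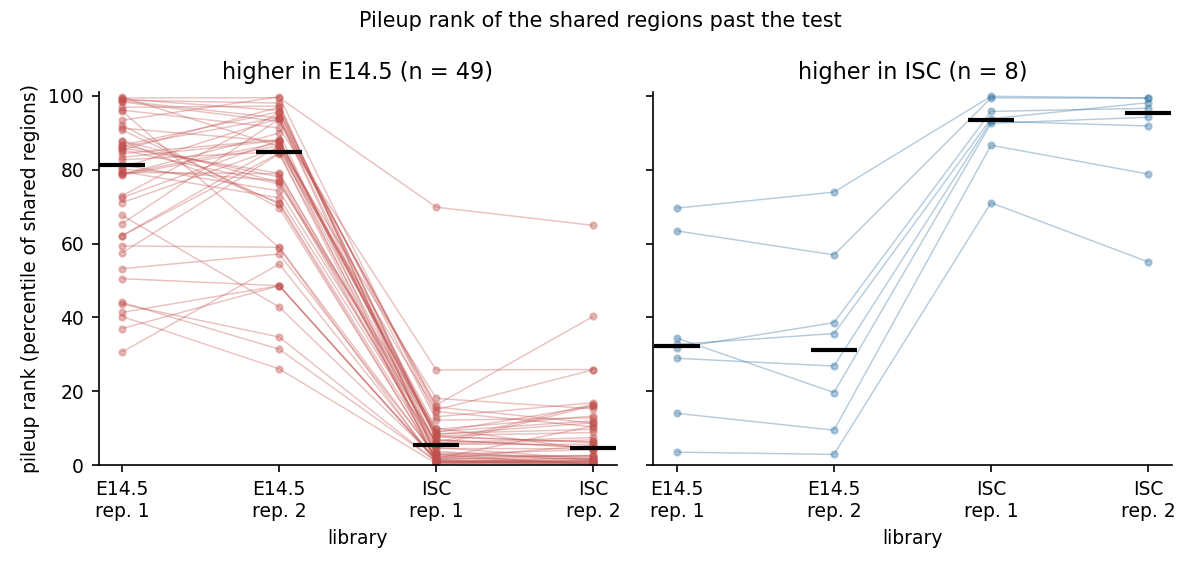
Pileup rank among the 4996 shared regions (percentile, 100 highest) in each library for the 49 regions called higher at E14.5 (left) and the 8 called higher in ISC (right); lines join the values of a region and black bars are medians. The 49 lie at medians of 81.3 and 84.9 at E14.5 and of 5.48 and 4.81 in ISC; the regions were chosen by these ranks.

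The order of shared regions by covered length gave no region past the test. Ranks of length lay higher in both ISC libraries than in both E14.5 libraries at 964 regions (19.3%) and lower at 1335 (26.7%). Limma called 0% in either direction, with 436 regions at an unadjusted p below 0.05 and a smallest adjusted p of 0.348. Without E14.5 replicate 1, 1564 passed. The largest gap towards ISC was at chr10:20442797-20445199, where peaks covered 261 and 78 bp at E14.5 and 2240 and 2403 bp in ISC. At chr5:52504157-52507791 the values were 379 and 175 bp against 3635 and 3623 bp. The largest gap towards E14.5 was at chr9:72654721-72656205, the second of the pileup regions above, with 1485 and 965 bp at E14.5 and 564 and 480 bp in ISC. It was followed by chr2:7001314-7002834, with 1521 and 664 bp against 564 and 735 bp and no enterocyte peak. The first pair of regions had peaks in every E12.5 and enterocyte library.

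The spread of the classes along the chromosomes is described by windows of 1 Mb that were chosen after the counts were seen, with no test between the classes. ISC-only regions occurred in 1729 of 2209 windows with any region, with a median of 3 per window. The densest window, chr10:79000001-80000000, held 30 of them among 61 regions. Windows of chr17:35000001-36000000 and chr7:52000001-53000000 followed with 28 of 65 and 26 of 64. The 1808 regions of E14.5 replicate 1 without an ISC peak, a much smaller class, occurred in 1134 of 2206 windows of the 3 lists, with a median of 1. The window chr1:69000001-70000000 held 9 of them among 13 regions, at fold enrichments of 2.72 to 4.10, and chr16:74000001-75000000 held 8 among 9 at 2.89 to 3.86. These were the windows with the most of them, and few other regions lay there. Of the 9, 5 and 6 had a peak in the E12.5 libraries, and of the 8, 6 and 5 did. Neither enterocyte library had a peak at any of these 17 regions, as was the case for 97.1% of the class. E14.5 replicate 2 had a peak at 2 of the 9 and 1 of the 8.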

How the data were processed

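H2A.Z ChIP-seq peaks of 2 E14.5 and 2 ISC libraries were compared, with the E12.5 and enterocyte libraries as an outside reading. Per the file headers, broad peaks were called in each library by itself with MACS 2.1.0.20140616 and a q cutoff of 0.05. The headers also show that each E14.5 library had its own input and that both ISC libraries shared 1. The tools named in the submitters' processing notes are bcl2fastq 1.8.4, Bowtie 1.1.2 and SAMtools 1.2, and the build is mm9. Pileup is a coverage signal, deposited by the authors per broad peak, and the lists give no summit. The deposited −log10 p and −log10 q values and the fold enrichment, a ratio to local background, are also the authors' own and served to order, select and describe the peaks of a list.

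Peaks on chromosomes 1 to 19 were merged where they overlapped or touched (Python 3.11.15, pandas 2.3.3, numpy 2.4.6, scipy 1.17.1). A region took the highest fold enrichment and pileup and the summed length of a library's peaks. Ranks over shared regions were turned into normal scores and tested with limma 3.58.1 in R 4.3.3, with Benjamini-Hochberg adjustment over all shared regions. A check on simulated data set limits on missed and false calls only for equal noise in all libraries. With noise as uneven as in these libraries, it set a limit only on calls of the wrong sign. Wilson intervals of 95% cover counting error only. The series text calls the replicates biological duplicates without naming animals, so p-values measure the spread between these libraries.

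Named regions come from the 10 on each side with the highest lower fold enrichment, the 5 strongest of E14.5 replicate 1 alone, and the 5 farthest apart in each direction by rank of fold enrichment and of length. The comparison, its classes and these rules were chosen with earlier results of these data known. Alternatives were merging within 500 bp, a −log10 q of at least 10, coverage of 50% of a region, lists of equal length, ranks within the whole list, the widest peak, the replicate number as a block, and each library left out in turn. Merging 3 lists anew for ranks and lengths was chosen after seeing the data. Promoter positions and gene lists were not used here, since the annotation at hand was of another build.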

Additional observations from a re-analysis of the deposited data

Results flagged for a closer look

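Chromosomes X, Y and M were outside the comparison, and peaks were listed on all of them in at least 1 library, above the limit of 3 that a count of 0 allows. The X chromosome held 418 peaks in E14.5 replicate 1, 86 in E14.5 replicate 2, 607 in ISC replicate 1 and 732 in ISC replicate 2. The Y chromosome held 17, 44, 19 and 23 peaks in the same order, so that the shortest list had the most. The mitochondrial chromosome, which carries no nucleosomes, held 7 peaks in E14.5 replicate 2, with fold enrichments of up to 2.32, and 0 in the other 3 libraries. Groups of 2 libraries are too small to test for a library that stands apart.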

How the results depend on the processing

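Of the 54 alternative values of the main counts and of the length ratio, 26 stayed within 1.5 times the main value or the spread between libraries. ISC-only, E14.5-only and shared regions numbered 1092, 729 and 2244 in lists of equal length. A −log10 q of at least 10 left 6487, 1 and 0, so ranks and lengths could not be fitted there. With 50% coverage they numbered 12184, 41 and 251. Leaving out each library gave 9696 to 18551 ISC-only, 128 to 1808 E14.5-only and 5019 to 13909 shared regions, the highest ISC-only count without E14.5 replicate 1 and the other maxima without E14.5 replicate 2. Leaving out each library gave 0 to 2329 rank calls for fold enrichment, 17 to 1122 for pileup and 0 to 1564 for covered length, the highest without E14.5 replicate 1. The lone library of a stage is there assumed to vary like the other stage. The 3 lists merged anew gave 4591 and 2485 calls for fold enrichment and pileup among 13909 regions. Merging within 500 bp left 25 pileup calls, and ranks within the whole list left 0. The length ratio ran from 0.40 without E14.5 replicate 2 to 2.31 without E14.5 replicate 1. With the replicate number as a block, 468 regions were called for fold enrichment, 0 for pileup and 74 for covered length. The numbers do not pair the libraries: same-numbered libraries deviated with correlations of 0.03, -0.01 and 0.02 for the 3 measures across regions. The causes were not tested. Promoter windows were not run. None of the 343 values for named regions and shares reversed, 263 kept their side, 60 passed the threshold newly, 6 lost it and 14 moved. The named regions were chosen because the libraries of the stages lay apart there. Leaving out a library or adding the block could therefore not reverse them. The limits on q, coverage and list length could only take presence away, so they could not reverse the regions named by presence either. At a −log10 q of at least 10, 11 of the 20 regions named by presence still had a peak. The others, all E14.5-only, had none left and were not among the 343 values. Tag totals of 27835048 to 37256682 limit which weak peaks can be called, and their part in these differences was not tested.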
